A study of Mus musculus with 5 samples.

Results

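The cytosolic ribosomal protein genes are the genes for the proteins that, with ribosomal RNA, build the ribosome of the cytoplasm. They were taken from the expression table by gene symbol, as protein-coding rows named Rpl or Rps with a number. At most a letter (a, x, y or l) and a digit could follow, so that *Rpl36al* and *Rps27rt* did not match. *Rpsa*, *Rplp0*, *Rplp1* and *Rplp2* were added, and the kinases that phosphorylate RPS6 were left out. This gave 83 of the 21835 genes in the table, of which 31 encode proteins of the small subunit, 43 proteins of the large subunit, 3 proteins of the P stalk and 6 paralogs whose symbols end in l or l1. RNA sequencing was performed on murine lung cancer-associated fibroblasts (CAFs) in 2 groups. The 2 CAF-vec samples carried the control vector and are labelled WT control, and the 3 CAF-200 samples overexpressed the miR-200b/a/429 cluster from a lentiviral vector, which is pLVX-Neo in the labels and pLVX-Hyg in the study's methods. The labels state lentiviral infection followed by selection with G418, so that each group is a selected population of cultured cells, and they give no age or strain. The study's methods state that RNA was extracted in triplicate, and 2 CAF-vec samples were analysed here. Nothing in the labels says that samples of a group came from separate cultures, so that the *p* values measure only the spread between these samples, which may be technical.

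A ribosome has a small subunit, which binds the mRNA and reads its codons, and a large subunit, which joins the amino acids. The P stalk of the large subunit (RPLP0, RPLP1 and RPLP2) recruits the translation factors that drive elongation. Most of the proteins are needed in about equal numbers of copies, and the mRNAs of this family are among the most abundant of a growing cell. In mammals most of them begin with a tract of pyrimidines at the 5′ end, through which mTORC1 controls their translation, and many of their genes carry small nucleolar RNAs in their introns. The microRNAs of the miR-200 family pair with 3′-UTRs through their seed and are known for their repression of *Zeb1* and *Zeb2*.

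The microRNAs of the overexpressed cluster are shown here because the seed defines which members they could pair with. Their mature sequences are from RefSeq (GRCm38.p6, minus strand of chromosome 4), with the seed, bases 2 to 8, in capitals. They lie at chr4:156055685-156055706 (miR-200b), chr4:156054911-156054932 (miR-200a) and chr4:156053916-156053937 (miR-429).
miR-200b-3p: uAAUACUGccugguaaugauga
miR-200a-3p: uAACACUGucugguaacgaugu
miR-429-3p: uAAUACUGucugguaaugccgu
miR-200b and miR-429 share a seed, whose 7-base match in an mRNA is CAGTATT, and the match of miR-200a is CAGTGTT.

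The 3′-UTRs of ribosomal protein mRNAs are short, with a median of 64.5 nt over the 80 members that could be tested, compared with 888 nt over the 12119 protein-coding genes tested. At least 1 of both matches was present in the 3′-UTR of 6 of the 80 members (7.50%) and of 26.2% of the protein-coding genes tested. Per kilobase of 3′-UTR there were 0.346 matches in the members and 0.287 in the protein-coding genes. The 6 members were *Rps3*, *Rps15a*, *Rps20*, *Rps23*, *Rpl13a* and the paralog *Rpl7l1*. The 25 bases around 5 of their 8 matches are printed below from the GENCODE M21 transcripts, with the match in capitals, because the gene called below (*Rps3*) is among them and the others are the remaining members with a match for miR-200b and miR-429.
Rps3: gattgtgtcCAGTATTcaactgagt
Rps20: gaaagcttgCAGTATTttttttttg
Rps23: caacatgtgCAGTATTctaaatgtg
Rpl13a: accacaaagCAGTATTtttctggag
Rpl13a, match of miR-200a: gttgagcttCAGTGTTgaaaatgag
The match in *Rps3* starts at base 93 of a 3′-UTR of 1059 nt, and that in *Rps20* at base 2647 of 3167 nt. A match is a description of these letters and not a site shown to be bound.

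The 5′ ends are shown because the pyrimidine tract is what the family is known to share. RefSeq promoter windows (GRCm38.p6) were matched for 63 of the 83 members by symbol. A run of at least 6 pyrimidines (C or T) on the sense strand between 10 bases before and 30 bases after the annotated start was present in 43 of these 63 members (68.3%) and in 38.8% of all 27025 genes with a window. A run of at least 10 was present in 20 members (31.7%) and 7.23% of all genes. The ETS-type core CCGGAAG was found on either strand of the window of 300 bases in 26 members (41.3%) and 9.93% of all genes, AAGATGGC, a YY1-type motif, in 6 (9.52%) and 3.19%, and TATAAA in 7 (11.1%) and 15.7%. The 30 bases from 10 before the start are printed for 4 members that the results return to, with the longest run of at least 6 pyrimidines in capitals.
Rps27, chr3:90213629-90213658, minus strand: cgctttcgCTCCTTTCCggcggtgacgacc
Rpl31, chr1:39367841-39367870, plus strand: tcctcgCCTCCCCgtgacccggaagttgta
Rps12, chr10:23787190-23787219, minus strand: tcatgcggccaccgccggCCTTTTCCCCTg
Rps3, chr7:99483690-99483719, minus strand: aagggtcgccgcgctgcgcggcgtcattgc
Between 10 bases before and 30 bases after its RefSeq start, *Rps3* held no run of 6 pyrimidines. The GENCODE gene extends further 5′, to chr7:99483738, and that end was not scanned.

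Values were CPM (reads of a gene scaled to a fixed library total), which the authors normalized to about the same total in each sample, so that sequencing depth is unknown. The low values of the groups were not alike: 0 genes were at 0 in only some of the CAF-200 samples, whereas 1205 were at 0 in 1 of the CAF-vec samples, and 788 to 1100 values of each CAF-200 sample lay above 0 but below 0.001 CPM, compared with 0 in each CAF-vec sample. The values may therefore have been adjusted further than plain CPM, and what this does to the spread between CAF-200 samples was not tested. One control sample stood apart. The 13 mitochondrially encoded genes took up 1.34% of the CPM total of CAF-vec 1 but 9.11% of that of CAF-vec 2, and 7.74%, 9.13% and 9.22% in CAF-200 1 to 3. The fibroblast markers summed to 17245 and 13384 CPM in CAF-vec and to 11572, 11749 and 10760 CPM in CAF-200, without overlap. Of these, *Col1a1* (4613 and 2003 CPM in CAF-vec, 1543 to 1719 CPM in CAF-200), *Col1a2* and *Pdgfrb* were lower in all CAF-200 samples than in both CAF-vec samples. *Col1a1* and *Col1a2* were highest in CAF-vec 1. In contrast, *Dcn* (7.67 and 8.18 CPM in CAF-vec, 51.0 to 61.5 CPM in CAF-200), *Lum*, *Thy1* and *Col3a1* were higher in all CAF-200 samples than in both CAF-vec samples. The groups overlapped in *Pdgfra*, *Vim* and *S100a4*. *Cdh1* of the epithelial markers and *Ptprc* of the leukocyte markers were at most 0.0404 CPM. The epithelial list summed to at most 0.421 CPM and the endothelial list to at most 0.857 CPM. The smooth muscle and pericyte list summed to 5.78 and 4.46 CPM in CAF-vec and 3.60, 3.46 and 4.40 CPM in CAF-200, also without overlap. The leukocyte and macrophage list had sums of 8.34 (CAF-vec 1), 9.31 (CAF-vec 2) and, for the 3 CAF-200 samples, 12.2 to 12.8 CPM, without overlap, and *Lyz2* was the 1 gene in it above 1 CPM that was higher in all CAF-200 samples, at 1.11 and 1.99 CPM in CAF-vec and 7.48, 7.16 and 6.48 CPM in CAF-200. *Cd68* was highest in CAF-vec 2 (5.01 CPM), *Csf1r* was highest in CAF-vec 1 (4.97 CPM) and *Adgre1* was listed at 0 throughout. The part of these markers in the results was not tested. *Zeb1* was 43.5 and 50.7 CPM in CAF-vec and 37.8, 37.5 and 34.1 CPM in CAF-200 (log2 change -0.36, limma adjusted *p* = 0.0504). *Zeb2* was 46.2 and 29.8 CPM in CAF-vec and 31.9, 31.8 and 31.1 CPM in CAF-200 (log2 change -0.23, limma adjusted *p* = 0.374). No microRNA was measured here, so that the overexpression itself was not checked. In bulk RNA, fewer cells of a type and less RNA per cell cannot be told apart.

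The members accounted for a large part of the mRNA in every sample. Their summed share of all CPM was 12.6% in CAF-vec 1, 13.6% in CAF-vec 2 and 13.9%, 14.2% and 13.6% in CAF-200 1 to 3. All 3 CAF-200 samples were above both CAF-vec samples, with CAF-vec 2 next to CAF-200 3. The mean was 13.1% ± 0.695 (SD, n = 2) in CAF-vec and 13.9% ± 0.289 (SD, n = 3) in CAF-200, a difference of 0.789 percentage points (exact two-sided permutation test, *p* = 0.200, the smallest this design allows). Without CAF-vec 1 the difference was 0.298 percentage points. With the mitochondrially encoded genes left out of the total, the share was 12.8% in CAF-vec 1, 14.9% in CAF-vec 2, and 15.0%, 15.6% and 15.0% in CAF-200 1 to 3. Small subunit genes (symbols in Rps) were expressed at 0.718 and 0.776 of the summed CPM of large subunit genes (symbols in Rpl) in CAF-vec, and at 0.756, 0.757 and 0.769 in CAF-200 (exact two-sided permutation test, *p* = 0.800).

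**Figure D1:**
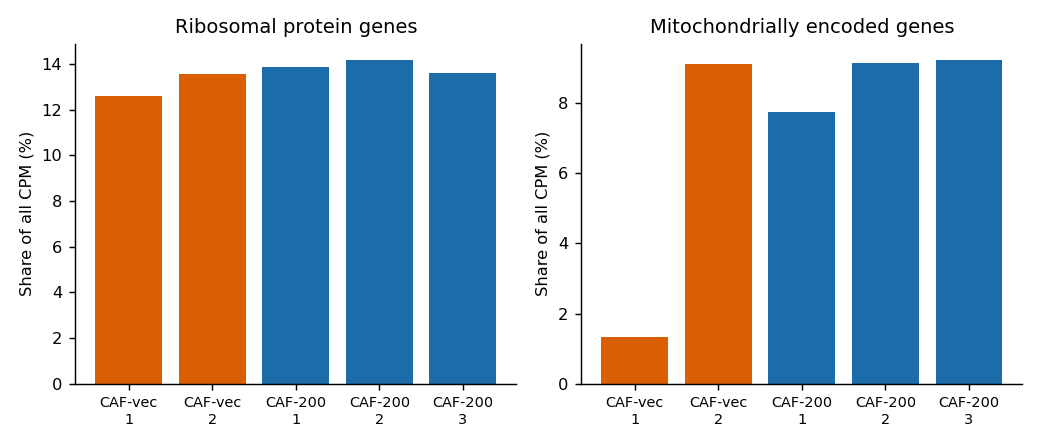
Share of all CPM (%, bars from 0) in the 83 ribosomal protein genes (left) and the 13 mitochondrially encoded genes (right), for each of the 2 CAF-vec (orange) and 3 CAF-200 (blue) samples. Ribosomal protein genes lay between 12.6% and 14.2% in every sample, whereas mitochondrially encoded genes were 1.34% in CAF-vec 1 and 7.74% or more in the other samples.

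Levels of different genes were compared per kilobase of the annotated transcript. In CAF-200 the 80 tested members had a median of 1785 CPM per kilobase, compared with 7.55 over the protein-coding genes tested, and 46 of the 100 genes with the highest mean CPM were members. *Rplp1*, a P stalk protein, was at the top with 10725 ± 450 CPM per kilobase (SD, n = 3). *Rpl41*, the smallest protein of the family, followed with 8321 ± 459, *Rps12* with 7917 ± 313, *Rps29* with 7647 ± 565 and *Rps15* with 7620 ± 350 CPM per kilobase. From *Rpl41* to *Rps15* neighbours differed by less than their spread, so that their order is not settled. At the bottom were *Rps3* with 640 ± 40.0, *Rps20* with 332 ± 22.0, *Rps15a* with 301 ± 29.7 and *Rpl7l1* with 29.7 ± 1.79 CPM per kilobase. The annotated 3′-UTRs of *Rps20* (3167 nt) and *Rps15a* (4722 nt) are the longest of the members, and their levels per kilobase depend on that annotation. The genes named here for their rank (*Rps29*, *Rps15* and *Rps15a*) were chosen after their values were seen. The median of the 80 members was 782 CPM per kilobase when the union of all annotated exons was taken as the length.

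**Figure D2:**
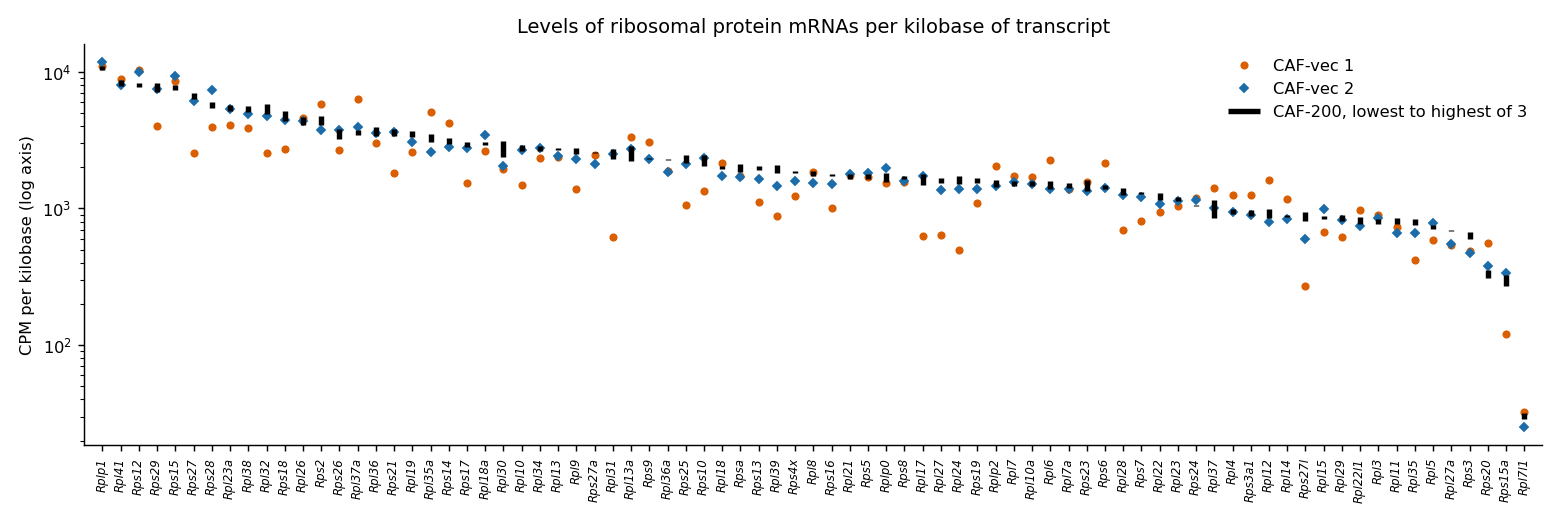
CPM per kilobase of transcript (log axis) for 79 of the 80 tested ribosomal protein genes in descending order of the CAF-200 mean. Bars span the 3 CAF-200 samples, and circles and diamonds are CAF-vec 1 and CAF-vec 2. *Rplp1* is highest at 10725 and *Rpl7l1* lowest at 29.7 in CAF-200, and the circles leave the bars more often than the diamonds.

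Differential expression between CAF-vec and CAF-200 was then examined gene by gene. Of the 83 members, 80 passed the filter of at least 0.5 CPM in at least 2 samples. *Rpl10l* and *Rpl39l*, paralogs known from testis, were listed at 0 in every sample. *Rpl3l*, the paralog of muscle, was listed at 0 in CAF-vec and reached 0.0611 CPM in CAF-200 3. The tested members ran from 65.5 to 5856 CPM, so that none passed the filter only through 1 group. At an adjusted *p* under 0.05 (limma, Benjamini-Hochberg over 12175 genes), 0 of the 80 members were lower in CAF-200, compared with 18.6% of all genes, and 1 was higher, compared with 11.9% of all genes. At the stricter thresholds used in the study's volcano plot (0.01 for the adjusted *p* and 1 for the size of the log2 fold-change), 0 members were lower and 0 higher, compared with 2.35% and 2.37% of all genes. At an unadjusted *p* under 0.05 in limma, 0 members were lower (27.6% of all genes) and 11 were higher (17.3% of all genes).

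Most members changed little in size. The median log2 fold-change of the 80 members was 0.12, beside -0.09 over all genes tested, and 52 of the 80 (65.0%) had a positive value, beside 41.7% of all genes. The fold-changes ran from -0.48 to 1.10, with 41 members within 0.25 of 0 on the log2 scale, 16 above 0.5 and 0 below -0.5. The members had a median size of change of 0.25, compared with 0.32 over all genes, and their median standard error was larger, at 0.169 compared with 0.134. In 30 members all CAF-200 samples were above both CAF-vec samples (37.5%, beside 24.3% of all genes), and in 6 they were below (7.50%, beside 37.3% of all genes).

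**Figure D3:**
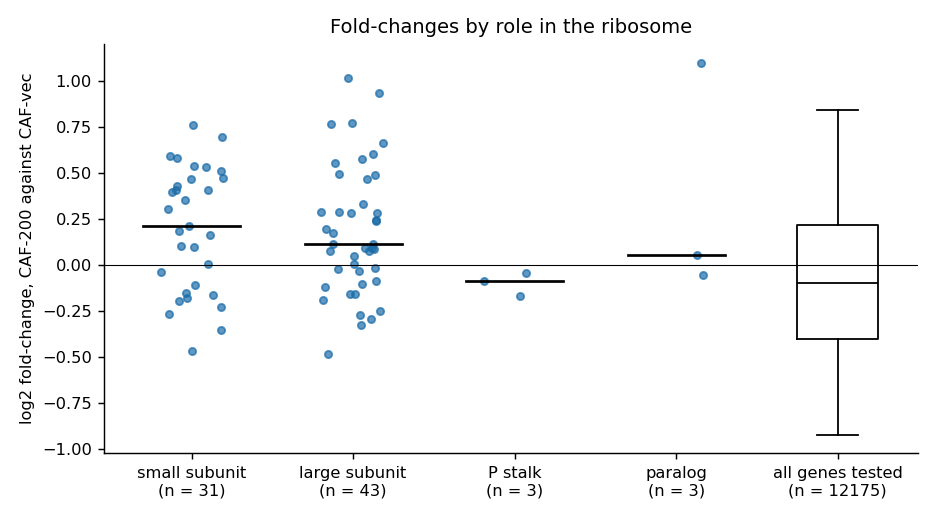
Log2 fold-change of CAF-200 against CAF-vec for each tested ribosomal protein gene, by role, with the median as a line. The box shows all 12175 genes tested (median and quartiles, whiskers at the percentiles 5 and 95). The members run from -0.48 to 1.10, and their medians are 0.21 in the small subunit and 0.12 in the large subunit.

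The 1 member called was *Rps3* (chr7:99477896-99483738, minus strand, GRCm38), a small subunit protein at the entry of the mRNA channel that also has a role in DNA repair. Falling outside the fixed list of genes, it was chosen after its values were seen. *Rps3* was 930 and 907 CPM in CAF-vec and 1133, 1274 and 1255 CPM in CAF-200. Every CAF-200 sample was above both CAF-vec samples, which differed little from each other. *Rps3* rose by 0.41 on the log2 scale (standard error 0.116, limma adjusted *p* = 0.0462). Leaving out any of the 3 CAF-200 samples ended the call (adjusted *p* = 0.132, 0.196 and 0.189, limma), as did the fit without a filter (0.0760), quantile normalization (0.138) and the replicate number as a block (0.291), a fit to which CAF-200 3, alone with its number, adds nothing. Over all alternatives its adjusted *p* ranged from 0.00536 to 0.291, and its fold-change stayed positive.

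Several members lay just on the other side of the threshold. *Rpl39*, a small protein of the peptide exit tunnel, was 541 and 892 CPM in CAF-vec and 1173, 1114 and 1264 CPM in CAF-200. All CAF-200 samples were higher, and CAF-vec 1 was the lowest sample (log2 change 0.77, standard error 0.225, limma adjusted *p* = 0.0502). *Rpl27a*, a large subunit protein chosen after its values were seen, was 623 and 641 CPM in CAF-vec and 796, 800 and 792 CPM in CAF-200. Its groups were each tight and did not overlap (log2 change 0.33, standard error 0.0977, limma adjusted *p* = 0.0503). *Rps27l* (chr9:66946086-66949516, plus strand, GRCm38), a paralog of *Rps27* and a known target of p53, was 134 and 300 CPM in CAF-vec and 407, 473 and 416 CPM in CAF-200. It had the largest fold-change of the members, with CAF-vec 2 between CAF-vec 1 and the CAF-200 samples (log2 change 1.10, standard error 0.329, limma adjusted *p* = 0.0523).

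**Figure D4:**
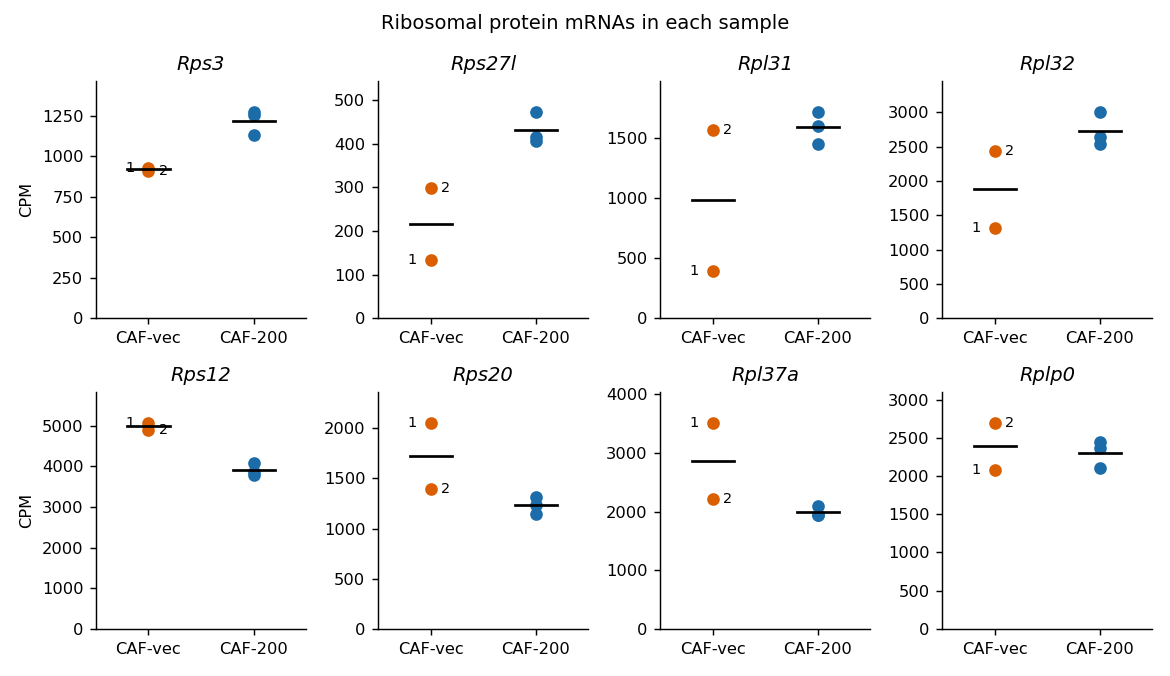
CPM (linear axis from 0) of 8 ribosomal protein genes in each sample, with the group mean as a line and the replicate number beside each CAF-vec point. The groups of *Rps3* and *Rps12* are tight and apart, whereas CAF-vec 1 of *Rpl31*, at 392 CPM, lies far from CAF-vec 2, at 1571 CPM.

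Among the large subunit genes, 0 of 43 were called in either direction (18.6% of all genes lower and 11.9% higher), 29 had a positive fold-change (41.7% of all genes) and the median was 0.12. *Rpl31*, near the exit of the tunnel, was 392 and 1571 CPM in CAF-vec and 1456, 1719 and 1602 CPM in CAF-200. CAF-vec 1 alone was low, and CAF-vec 2 lay among the CAF-200 samples (log2 change 1.02, standard error 0.553, limma adjusted *p* = 0.204). *Rpl24*, at the bridge between the subunits, was 337 and 942 CPM in CAF-vec and 1014, 1161 and 1070 CPM in CAF-200 (log2 change 0.94, limma adjusted *p* = 0.135). *Rpl27* was 392 and 844 CPM in CAF-vec and 981, 1020 and 949 CPM in CAF-200 (log2 change 0.77, limma adjusted *p* = 0.113). In both genes CAF-vec 2 was just below the CAF-200 samples and CAF-vec 1 far below. *Rpl17* was 491 and 1342 CPM in CAF-vec and 1156, 1392 and 1328 CPM in CAF-200, so that its groups overlapped (log2 change 0.67, limma adjusted *p* = 0.255).

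At the other end of the large subunit, *Rpl37a* was 3516 and 2210 CPM in CAF-vec and 2100, 1934 and 1950 CPM in CAF-200. CAF-vec 1 alone was high and CAF-vec 2 was close to CAF-200 (log2 change -0.48, standard error 0.221, limma adjusted *p* = 0.145). *Rpl12*, a protein at the base of the P stalk, was 2012 and 994 CPM in CAF-vec and 1239, 1089 and 1064 CPM in CAF-200 (log2 change -0.33, limma adjusted *p* = 0.435). *Rpl6* was 2881 and 1759 CPM in CAF-vec and 2007, 1770 and 1919 CPM in CAF-200 (log2 change -0.25, limma adjusted *p* = 0.439). In both, CAF-vec 2 was below all CAF-200 samples and CAF-vec 1 above them. *Rpl13a*, known outside the ribosome for the GAIT complex of translational silencing, was 3467 and 2850 CPM in CAF-vec and 2390, 3018 and 2338 CPM in CAF-200, with overlapping groups (log2 change -0.29, limma adjusted *p* = 0.264). *Rpl37* was 1186 and 835 CPM in CAF-vec and 962, 705 and 833 CPM in CAF-200, and its CAF-200 samples spread as widely as the groups differed (log2 change -0.27, limma adjusted *p* = 0.357).

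*Rpl5* and *Rpl11*, which form the 5S ribonucleoprotein that binds MDM2 when ribosome assembly is disturbed, differed little. *Rpl5* was 1209 and 1603 CPM in CAF-vec and 1455, 1540 and 1446 CPM in CAF-200 (log2 change 0.09, limma adjusted *p* = 0.690). *Rpl11* was 613 and 547 CPM in CAF-vec and 703, 655 and 637 CPM in CAF-200, without overlap (log2 change 0.20, limma adjusted *p* = 0.217). *Rpl41* was 4845 and 4343 CPM in CAF-vec and 4244, 4619 and 4717 CPM in CAF-200 (log2 change -0.02, limma adjusted *p* = 0.927), a sign that turned positive when samples were scaled by their median or by a trimmed mean.

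Among the small subunit genes, *Rps3* was the 1 of 31 called (18.6% of all genes lower and 11.9% higher), 21 had a positive fold-change (41.7% of all genes) and the median was 0.21. *Rps27*, a zinc-finger protein of the small subunit, was 883 and 2090 CPM in CAF-vec and 2194, 2400 and 2331 CPM in CAF-200 (log2 change 0.76, standard error 0.356, limma adjusted *p* = 0.152). CAF-vec 1 alone was low, and CAF-vec 2 was just under the CAF-200 samples. *Rps4x*, the X-linked small subunit protein, was 1201 and 1551 CPM in CAF-vec and 1830, 1832 and 1768 CPM in CAF-200, without overlap (log2 change 0.41, limma adjusted *p* = 0.0922).

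*Rps12*, a small subunit protein near the beak, was 5075 and 4901 CPM in CAF-vec and 3850, 4087 and 3796 CPM in CAF-200. Both groups were tight, and all CAF-200 samples were lower (log2 change -0.35, standard error 0.146, limma adjusted *p* = 0.119). Without the variance trend it fell by 0.35 and passed the threshold (limma adjusted *p* = 0.0381). *Rps20*, which also takes part in MDM2 binding, was 2056 and 1398 CPM in CAF-vec and 1311, 1148 and 1236 CPM in CAF-200 (log2 change -0.46, limma adjusted *p* = 0.119). *Rps6*, the substrate of S6 kinase, was 1878 and 1235 CPM in CAF-vec and 1302, 1286 and 1218 CPM in CAF-200 (log2 change -0.26, limma adjusted *p* = 0.340). In *Rps20* and *Rps6*, CAF-vec 1 was the high sample. *Rpsa*, the laminin receptor precursor, was 2779 and 2697 CPM in CAF-vec and 3357, 2948 and 3236 CPM in CAF-200, without overlap (log2 change 0.21, limma adjusted *p* = 0.283). *Rps27a*, made as a fusion with ubiquitin, was 1567 and 1341 CPM in CAF-vec and 1627, 1649 and 1607 CPM in CAF-200, also without overlap (log2 change 0.17, limma adjusted *p* = 0.351).

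The P stalk genes had overlapping groups in all 3 cases. *Rplp0*, a common reference gene, was 2076 and 2699 CPM in CAF-vec and 2361, 2452 and 2110 CPM in CAF-200 (log2 change -0.04, limma adjusted *p* = 0.870). *Rplp1* was 5488 and 5856 CPM in CAF-vec and 5446, 5514 and 5095 CPM in CAF-200 (log2 change -0.08, limma adjusted *p* = 0.700). *Rplp2* was 1955 and 1401 CPM in CAF-vec and 1557, 1386 and 1481 CPM in CAF-200 (log2 change -0.17, limma adjusted *p* = 0.492). The signs of *Rplp0* and *Rplp1* turned positive when samples were scaled by their median or by a trimmed mean.

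*Rpl32* (chr6:115805505-115808747, minus strand, GRCm38), a large subunit gene, is the gene to which the study normalized mRNA levels in RT-qPCR. *Rpl32* was 1315 and 2442 CPM in CAF-vec and 2541, 3003 and 2643 CPM in CAF-200. All CAF-200 samples were above both CAF-vec samples, and CAF-vec 2 was 1.86 times CAF-vec 1. The mean of CAF-vec was 1878 ± 796 CPM (SD, n = 2), and that of CAF-200 was 2729 ± 243 CPM (SD, n = 3) (log2 change 0.60, standard error 0.278, limma adjusted *p* = 0.148). Against CAF-vec 2 alone the CAF-200 samples were higher by 0.16 on the log2 scale. Whether the RT-qPCR assays used the RNA of these libraries is not given in the sources used here.

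*Rps27l* and *Rpl7l1* were expressed below their partners in every sample, and *Rpl22l1* was below its partner in all samples but CAF-vec 1. *Rps27l* averaged 217 ± 117 CPM over the controls (SD, n = 2) and 432 ± 35.8 CPM over CAF-200 (SD, n = 3), and its values per sample are given above beside those of *Rps27*. The coding sequences of *Rps27* and *Rps27l* are each 255 nt, with 76.6% identity in a global alignment and no identical run above 11 nt, compared with reads of 100 nt. *Rpl22l1* was 538 and 408 CPM in CAF-vec and 449, 428 and 480 CPM in CAF-200 (log2 change -0.05, limma adjusted *p* = 0.796). Its partner *Rpl22*, which represses *Rpl22l1* in other cells, was 447 and 507 CPM in CAF-vec and 576, 619 and 546 CPM in CAF-200, without overlap (log2 change 0.28, limma adjusted *p* = 0.112). *Rpl7l1* was 84.7 and 65.5 CPM in CAF-vec and 74.7, 74.9 and 82.9 CPM in CAF-200 (log2 change 0.05, limma adjusted *p* = 0.767), beside 1707 to 2021 CPM for *Rpl7* in all samples (log2 change -0.12, limma adjusted *p* = 0.512). *Rpl3* was 1201 and 1149 CPM in CAF-vec and 1118, 1133 and 1031 CPM in CAF-200 (log2 change -0.10, limma adjusted *p* = 0.509). *Rpl10* was 1176 and 2150 CPM in CAF-vec and 2167, 2331 and 2116 CPM in CAF-200, with CAF-vec 1 alone low (log2 change 0.47, limma adjusted *p* = 0.218). Most ribosomal protein genes have processed pseudogenes in the genome, of which 5 are rows of the table. The submitters' processing notes name RSEM, which apportions shared reads by estimation, but whether pseudogenes were in its reference is not given in the sources used here.

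The CAF-vec samples differed widely in these genes. Across the 80 members, CAF-vec 2 minus CAF-vec 1 had a median of 0.11 and an SD of 0.625 on the log2 scale, larger than the SD of 0.490 over all genes tested. In 21 members CAF-vec 2 was over 1.5 times CAF-vec 1, and in 6 it was under CAF-vec 1 by as much, beside 18.7% of all genes past this limit in either direction. The corresponding SDs between CAF-200 samples were 0.141, 0.105 and 0.122, below those over all genes (0.192, 0.204 and 0.195), and 0 members differed by over 1.5 times in any pair of CAF-200 samples, beside 1.17% to 1.93% of all genes. CAF-vec 1 was the lowest of all 5 samples in 43 members and the highest in 24. CAF-vec 1 was thus at 1 end in 67 of 80 members, beside 68.9% of all genes tested. CAF-vec 2 lay within the range of the CAF-200 samples in 25 members, and CAF-vec 1 in 6, but this was counted over the members only.

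**Figure D5:**
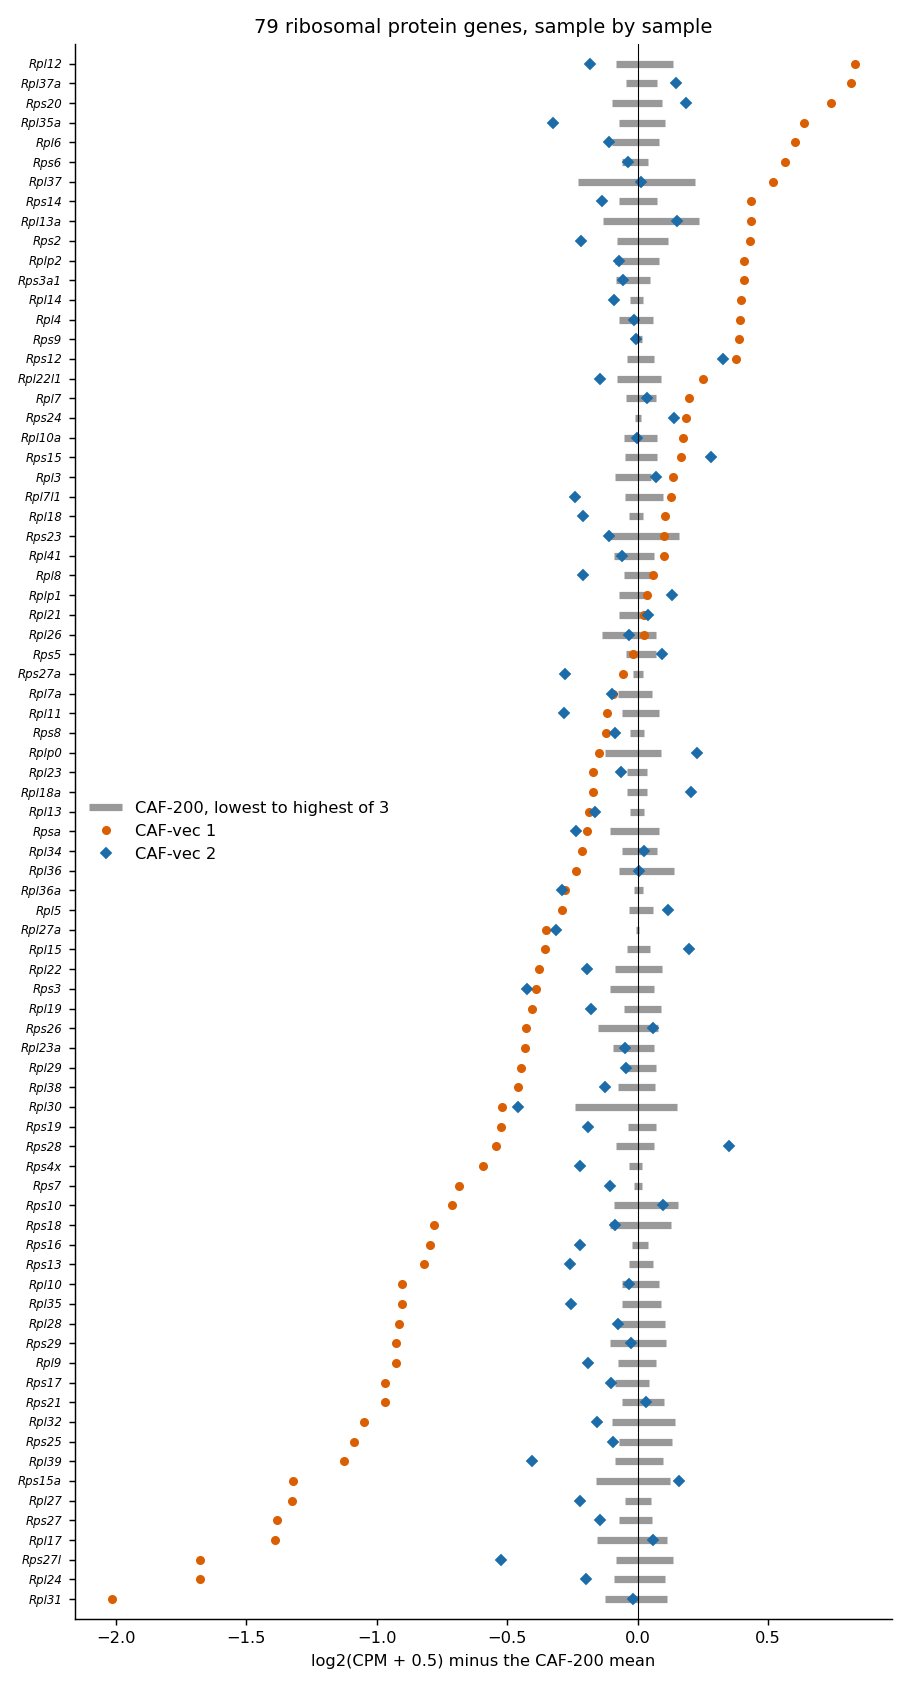
log2(CPM + 0.5) of 79 of the 80 tested members minus the CAF-200 mean of the gene. Grey bars span the 3 CAF-200 samples, orange circles are CAF-vec 1 and blue diamonds CAF-vec 2, and genes are ordered by CAF-vec 1. CAF-vec 2 minus CAF-vec 1 is 2.00 at *Rpl31* and -1.02 at *Rpl12*, the ends of the order, whereas the CAF-200 mean minus CAF-vec 2 stays between -0.35 and 0.52 for all members shown.

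Set against CAF-vec 1 alone, the CAF-200 mean differed by over 1.5 times in 29 of the 80 members (35.0% of all genes tested), with an SD of 0.642 on the log2 scale. Set against CAF-vec 2 alone it differed by over 1.5 times in 0 of the 80 members (19.7% of all genes tested), with an SD of 0.176 for the members and 0.531 for all genes. In the fit without CAF-vec 1, which assumes that the lone CAF-vec 2 varies like the CAF-200 samples, the log2 fold-changes of the members ran from -0.35 to 0.52, with a median of 0.08 beside -0.06 over all genes. That fit called 3 members lower (26.8% of all genes tested) and 16 higher (20.4% of all genes tested) at an adjusted *p* under 0.05 in limma. The fit without CAF-vec 2 called 17 lower (39.6% of all genes tested) and 39 higher (25.3% of all genes tested). Without CAF-vec 1, the members lower were *Rps28*, *Rps12* and *Rps15*, and the largest values among those higher were those of *Rps27l* (0.52), *Rpl30* (0.46), *Rps3* (0.43) and *Rpl39* (0.41). *Rps28*, *Rps15* and *Rpl30* were chosen after their values were seen. The share of mitochondrially encoded genes moved with CAF-vec 1, and its part in these differences was not tested.

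Features of the genes were set beside the difference between the CAF-vec samples. Over the 80 members, Spearman's rho of CAF-vec 2 minus CAF-vec 1 was -0.31 with transcript length, -0.14 with 3′-UTR length and 0.06 with the GC content of the transcript. These are descriptions over genes that share the same libraries. The 30 members that host small nucleolar RNA genes, 58 in all and up to 5 in *Rpl4*, had a median log2 fold-change of 0.10, and the 50 without had 0.18. The members lie on 19 chromosomes, with 14 of the 83 on chromosome 7.

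Ribosomal proteins under other symbols were examined beside the members. *Rack1*, the scaffold at the head of the small subunit, was 2563 and 1755 CPM in CAF-vec and 2034, 1736 and 1788 CPM in CAF-200 (log2 change -0.20, limma adjusted *p* = 0.473). *Fau* was 1371 and 1338 CPM in CAF-vec and 1261, 1362 and 1269 CPM in CAF-200 (log2 change -0.06, limma adjusted *p* = 0.692). *Rpl36al* was 417 and 615 CPM in CAF-vec and 658, 700 and 651 CPM in CAF-200, without overlap (log2 change 0.40, limma adjusted *p* = 0.140). *Rps27rt* was 6.35 and 35.9 CPM in CAF-vec and 37.2, 40.5 and 37.1 CPM in CAF-200, with CAF-vec 1 alone far below (log2 change 1.29, limma adjusted *p* = 0.179). Of 78 genes for mitochondrial ribosomal proteins, 2 were lower and 5 higher (18.6% and 11.9% of all genes), and their median log2 fold-change was 0.10. Without CAF-vec 1, 6 were lower and 20 higher (26.8% and 20.4% of all genes), and without CAF-vec 2, 24 were lower and 31 higher (39.6% and 25.3% of all genes). Without 1 of the CAF-200 samples 0 were lower and 2 higher in each case (4% to 5.98% and 3.59% to 4.42% of all genes).

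The genes that build ribosomes were examined beside the genes of the ribosome itself. Of 53 genes for the nucleolar processing of rRNA, 11 were higher (11.9% of all genes), 0 lower (18.6% of all genes) and 42 had a positive fold-change (41.7% of all genes), with a median of 0.21. *Nhp2*, of the box H/ACA particle that converts uridine to pseudouridine, was 46.2 and 65.8 CPM in CAF-vec and 137, 124 and 137 CPM in CAF-200. It rose by 1.26 on the log2 scale (limma adjusted *p* = 0.00589). *Dkc1*, the enzyme of the same particle, was 48.4 and 31.7 CPM in CAF-vec and 81.0, 68.7 and 80.4 CPM in CAF-200 and rose by 0.96 (limma adjusted *p* = 0.0176). The smallest rises called were those of *Wdr43* (0.44) and *Rrp1b* (0.36). In the fit without CAF-vec 1, 38 of the 53 were higher (20.4% of all genes) and 1 lower (26.8% of all genes), whereas without CAF-vec 2, 17 were higher (25.3% of all genes) and 14 lower (39.6% of all genes). Without 1 of the CAF-200 samples, 3 or 4 were higher and 0 lower, beside 4.42%, 4.15% and 3.59% of all genes higher and 5.98%, 4.79% and 4% lower without CAF-200 1, 2 and 3. Of 15 genes for RNA polymerase I and its factors, 2 were higher, near the share of 11.9% over all genes, and 0 lower (18.6% of all genes). They were *Cd3eap*, a subunit of the polymerase, which rose by 0.54 (limma adjusted *p* = 0.0161), and *Rrn3*, the initiation factor, which rose by 0.43 (limma adjusted *p* = 0.0240). Of the 15, 5 were higher and 1 lower without CAF-vec 1 (20.4% and 26.8% of all genes), 4 were higher and 6 lower without CAF-vec 2 (25.3% and 39.6% of all genes), and both calls were lost when any 1 of the CAF-200 samples was left out.

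Of the 8 tested genes of the MYC network, which is known to drive ribosome production, 2 were higher (11.9% of all genes) and 4 lower (18.6% of all genes). *Myc* was 45.9 and 52.6 CPM in CAF-vec and 89.9, 78.6 and 87.9 CPM in CAF-200 and rose by 0.79 (limma adjusted *p* = 0.00691). *Mycn* was 0.765 and 0.658 CPM in CAF-vec and 2.01, 2.14 and 1.72 CPM in CAF-200 and rose by 1.02 (limma adjusted *p* = 0.00771). The lower genes encode partners of MAX that oppose MYC. *Mxd3*, another such partner, chosen after its values were seen, went the other way without a call (log2 change 0.45, limma adjusted *p* = 0.0759). *Mxd4* was 121 and 79.9 CPM in CAF-vec and 39.6, 40.4 and 38.6 CPM in CAF-200 and fell by 1.31 (limma adjusted *p* = 0.00699), and *Mxd1* fell by 1.12 (limma adjusted *p* = 0.00907). In each of these genes the groups did not overlap. Without CAF-vec 1, 3 were higher and 4 lower (20.4% and 26.8% of all genes), and without CAF-vec 2, 2 were higher and 4 lower (25.3% and 39.6% of all genes). Without 1 of the CAF-200 samples 2 were higher (3.59% to 4.42% of all genes) and 1 or 2 lower (4% to 5.98% of all genes).

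Other mRNAs known to start with a pyrimidine tract were examined as well. Of 18 translation factors and other such mRNAs, 3 were lower, near the share of 18.6% over all genes, and 0 higher (11.9% of all genes), and the median log2 fold-change was -0.09, as over all genes. *Eef2*, the elongation factor for translocation, was 3864 and 3535 CPM in CAF-vec and 2508, 2417 and 2287 CPM in CAF-200 and fell by 0.62 (limma adjusted *p* = 0.0231). *Eif4b*, a helper of the helicase at the cap, fell by 0.54 (limma adjusted *p* = 0.0169), and *Eif3e*, an initiation factor subunit, fell by 0.44 (limma adjusted *p* = 0.0323). Without CAF-vec 1, 5 were lower and 4 higher (26.8% and 20.4% of all genes) and the median was 0.06, and without CAF-vec 2, 8 were lower and 3 higher (39.6% and 25.3% of all genes) and the median was -0.11. Of 18 genes of mTORC1, S6 kinase and cap-binding control, 1 was lower (18.6% of all genes) and 0 higher (11.9% of all genes). This was *Tsc1*, an inhibitor of mTORC1, which was 14.3 and 15.9 CPM in CAF-vec and 9.17, 10.1 and 9.66 CPM in CAF-200 and fell by 0.62 (limma adjusted *p* = 0.0106). Without CAF-vec 1, 4 were lower and 3 higher (26.8% and 20.4% of all genes), and without CAF-vec 2, 10 were lower and 1 higher (39.6% and 25.3% of all genes). Of the 6 kinases of the RSK family left out by the rule, *Rps6ka2* fell by 0.53 (limma adjusted *p* = 0.0178) and *Rps6ka5* rose by 0.46 (limma adjusted *p* = 0.0399), beside 18.6% lower and 11.9% higher of all genes, and 3 were lower and 1 higher without CAF-vec 2 (39.6% and 25.3% of all genes). Of 4 genes of ribosomal stress, *Trp53* rose by 0.45 (limma adjusted *p* = 0.0179) and *Mdm4*, which inhibits p53, fell by 0.50 (limma adjusted *p* = 0.0125), against the same shares of all genes. *Mdm2* (log2 change 0.07, limma adjusted *p* = 0.813) and *Cdkn1a* (log2 change 0.31, limma adjusted *p* = 0.122) of this list were not called. Without CAF-vec 1, 3 of the 4 were higher and 1 lower (20.4% and 26.8% of all genes), and without CAF-vec 2, 1 was higher and 2 lower (25.3% and 39.6% of all genes). All calls named in this paragraph were lost when any 1 of the CAF-200 samples was left out.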

How the data were processed

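Stranded mRNA libraries of 5 samples (2 CAF-vec, 3 CAF-200) were sequenced as paired reads of 100 nt. CPM values, named TMM in the file, were deposited by the authors. The submitters' processing notes name FastQC, cutadapt, Trimmomatic, STAR, RSEM, edgeR and the builds GRCm38 and mm10, with no versions. Columns summed to about the same total, whole reads could not be recovered (10.2% to 35.5% of low values were whole multiples of the commonest low value, within 0.02), and no count test was run. No gene was at 0 in only some of the CAF-200 samples. All 5 columns were used.

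The comparison used log2(CPM + 0.5), a scale that understates changes of low genes, with limma 3.58.1 in R 4.3.3 (lmFit, eBayes with a variance trend), over the 12175 genes that reached 0.5 CPM in 2 or more samples, and *p* values were adjusted by Benjamini-Hochberg. Names, lengths and coordinates came from GENCODE M21 (GRCm38), and 21795 of 21835 identifiers matched. The principal transcript gave lengths and 3′-UTRs, and promoters and microRNAs came from RefSeq. Members and lists were chosen with earlier results of these data known. Genes named were the 8 lowest and 8 highest fold-changes, the P stalk, paralog pairs and genes of known extra roles, and the 2 lowest and 2 highest called in each list. Single genes that these rules cover but that the text and plots leave out are not reported here. Alternatives were other pseudocounts, filters, scalings and thresholds, no variance trend, the replicate number as a block and each sample left out. Summaries and plots were made in Python 3.11.15 (SciPy 1.17.1, matplotlib 3.10.9, pandas 2.3.3).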

Additional observations from a re-analysis of the deposited data

How the results depend on the processing

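The depth of each sample is unknown, and 2 against 3 samples limit the precision. Of the members, 0 lower and 1 higher were called. With samples centred on their median or scaled by a trimmed mean of M values, 6 members were higher and the median log2 fold-change was 0.21 in each. Scaled to the total of the other genes 3 were higher, and scaled to the total without the mitochondrially encoded genes, chosen after seeing the data, 2. Without a filter, with quantile normalization, or at an adjusted *p* under 0.01 with or without the limit on fold-change, 0 were higher. Without the variance trend, 1 was lower (*Rps12*) and 2 higher. Leaving out each sample in turn gave 0 to 17 members lower, 0 to 39 higher and medians of 0.082 to 0.20, and each highest value was that without CAF-vec 2. The difference in share ranged from 0.298 to 1.28 percentage points. Over all genes, 485 to 4760 were lower and 435 to 3039 higher, beside 2265 and 1446 with all samples. The split over all genes was 1756 lower and 1872 higher centred on the median, 1773 and 1860 with a trimmed mean, and 1893 and 1786 with quantile normalization. It was 2208 lower and 1508 higher scaled to the total of the other genes, and 2089 and 1619 without the mitochondrially encoded genes. Without a filter 2003 of all genes were lower and 1349 higher, and without the variance trend 2226 and 1440.

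With the replicate number as a block (replicate block), 0 members were lower, 1 (*Rps27l*) higher and the median was 0.14, and 852 of all genes were lower and 630 higher. Nothing in the labels says whether same-numbered samples share more than a number. Their deviations from the group means correlated at 0.25 for number 1 and 0.13 for number 2 over all genes tested, and at 0.73 and 0.53 over the members. The deviations of the 2 CAF-vec samples from their mean are equal and opposite, so that the correlations for both numbers are not independent. CAF-200 3 has no partner in this fit, which ended the call of *Rps3* (adjusted *p* = 0.291, limma).

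Of the named members without a call, signs turned for *Rplp0* (0.057 centred on the median, 0.052 with a trimmed mean, 0.013 without mitochondrially encoded genes and 0.024 with the block), *Rpl41* (0.076, 0.071 and 0.032 in the same order, without the block), *Rpl22l1* (0.043 and 0.038) and *Rplp1* (0.013 and 0.0072). With a sample left out, fold-changes ranged from -0.83 to 0.18 for *Rpl12*, -0.059 to 1.39 for *Rpl17*, -0.25 to 0.15 for *Rpl22l1*, -0.10 to 0.058 for *Rpl41*, -0.12 to 0.29 for *Rpl5*, -0.60 to 0.11 for *Rpl6*, -0.13 to 0.24 for *Rpl7l1*, -0.23 to 0.15 for *Rplp0*, -0.41 to 0.072 for *Rplp2* and -0.57 to 0.038 for *Rps6*. The cause was not tested.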
